A study of Homo sapiens with 5 samples.

Results

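The E2F and DP transcription factor family was followed across 5 RNA-sequencing libraries made from U2OS, a cell line of human osteosarcoma. Members were taken by gene name: E2F1, E2F2, E2F3, E2F4, E2F5, E2F6, E2F7, E2F8, TFDP1 and TFDP2, which are 10 of the 27992 gene names in the count table. All 10 had at least 1 read per 1000000 gene reads in at least 1 library and were among the 15099 genes analysed. The study asked how the amount of E2F1 relates to the fate of the cell. It used U2OS cells carrying pTRIPZ-YFP-ER-E2F1, a doxycycline-inducible construct that joins a yellow fluorescent protein, an oestrogen receptor part and E2F1, so that 4-hydroxytamoxifen (OHT) acts on the fusion protein. A flow cytometer split these cells by YFP into a YFP-negative fraction and fractions of YFP-low, then YFP-medium and lastly YFP-high cells. The parental library came from U2OS that does not carry this construct. By the labels all 5 groups, parental cells included, received 500 ng/ml doxycycline for 48 h and then 90 nM OHT for a further 20 h, in medium with 8% serum. The labels give no library without doxycycline and OHT, and do not say whether the line is 1 clone. Each group had 1 library, so differences have no replicate check and the intervals cover counting error alone.

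E2F proteins bind DNA at promoters of genes needed for entry into S phase and for mitosis. E2F1, E2F2 and E2F3 act mainly as activators, are held by the retinoblastoma protein RB1 in resting cells and are released when cyclin-dependent kinases phosphorylate it. E2F4 and E2F5 act mainly with the pocket proteins RBL1 and RBL2 in repression, and E2F6 represses without pocket proteins, in a Polycomb complex. These 6 proteins bind DNA as heterodimers with a DP protein, encoded by TFDP1 or TFDP2. E2F7 and E2F8 are atypical members that carry a duplicated DNA-binding domain, need no DP partner and repress E2F targets, among them E2F1 itself.

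Since several E2F genes are themselves known E2F targets, the promoters of members were searched for the classical E2F site, spelled as TTTGGCGC, TTTCGCGC, TTTCCCGC or TTTGCCGC on both strands, in windows of 300 bases from 250 before to 50 after the gene start (RefSeq, GRCh38.p14; 11 windows of 8 members; E2F5 and E2F8 were not used here). At least 1 match was found for 4 of the 8 members, E2F1, E2F2, E2F3 and TFDP1, and 3.31% of all 35116 promoter windows of this length held one. The 150 bases just before the gene start are shown for these 4 members and, for comparison, for E2F7, which followed the YFP gates only in part, and E2F4, whose level was lowest in YFP-high. Bases run 5′ to 3′ on the strand of the gene and capitals mark a match. The windows lie at chr20:33686386-33686535 (minus strand) for E2F1, chr1:23531234-23531383 (minus strand) for E2F2, chr6:20401729-20401878 (plus strand) for E2F3, chr13:113584603-113584752 (plus strand) for TFDP1, chr12:77065570-77065719 (minus strand) for E2F7 and chr16:67192005-67192154 (plus strand) for E2F4.
E2F1: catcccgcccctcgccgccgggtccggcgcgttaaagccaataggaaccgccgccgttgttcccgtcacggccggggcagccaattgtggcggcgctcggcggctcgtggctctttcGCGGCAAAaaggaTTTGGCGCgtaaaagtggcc
E2F2: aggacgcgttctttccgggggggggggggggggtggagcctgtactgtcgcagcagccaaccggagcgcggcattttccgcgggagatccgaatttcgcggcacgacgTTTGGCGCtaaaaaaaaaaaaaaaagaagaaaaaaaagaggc
E2F3: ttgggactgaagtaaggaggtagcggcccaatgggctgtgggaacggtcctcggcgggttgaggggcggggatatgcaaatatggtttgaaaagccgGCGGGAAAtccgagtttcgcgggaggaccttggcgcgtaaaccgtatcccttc
TFDP1: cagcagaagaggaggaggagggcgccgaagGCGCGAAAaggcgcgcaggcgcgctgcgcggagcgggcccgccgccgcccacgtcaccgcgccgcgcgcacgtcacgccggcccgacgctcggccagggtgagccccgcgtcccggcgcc
E2F7: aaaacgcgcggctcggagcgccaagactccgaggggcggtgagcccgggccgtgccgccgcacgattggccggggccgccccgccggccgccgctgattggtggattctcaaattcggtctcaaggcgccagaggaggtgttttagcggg
E2F4: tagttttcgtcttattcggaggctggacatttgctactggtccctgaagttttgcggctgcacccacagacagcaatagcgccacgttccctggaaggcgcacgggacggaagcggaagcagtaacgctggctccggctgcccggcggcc
E2F1 held 2 matches that do not overlap, TTTGCCGC on the opposite strand at 33 to 26 bases before the gene start and TTTGGCGC on the gene's strand at 20 to 13 bases before it. E2F2 held TTTGGCGC at 42 to 35 bases before its start. E2F3 held TTTCCCGC on the opposite strand at 53 to 46 bases before the start of 1 of its 2 windows, and TFDP1 held TTTCGCGC on the opposite strand at 120 to 113 bases before its start. None of the 4 spellings was found in the windows of E2F4, E2F6, E2F7 and TFDP2. A match describes these letters in the reference and is not a measured binding site.

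The libraries held 70715003 to 76525158 gene reads. Bone lineage markers (4 of 8 analysed) summed to 1554 to 4642 CPM, highest in parental, nearly all from COL1A1 and SPARC. RUNX2 had 32.6 to 50.4 CPM, while SP7, BGLAP and IBSP, of the same list, were at or near 0 reads. Of the 3 listed U2OS markers, CDKN2A, silenced in U2OS, and TERT were at or near 0. ATRX, the remaining gene, did not share this low level. It made up nearly all of the list's sum of 128 to 235 CPM, highest in parental. Leukocyte markers summed to 0.340 to 0.693 CPM and endothelial markers to 0.108 to 1.90 CPM, the upper value being nearly all KDR in YFP-high. Epithelial markers (all 5 analysed) summed to 455 to 571 CPM and neuronal markers (all 4 analysed) to 138 to 261 CPM, both highest in parental. The part of these markers in the results was not tested.

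E2F1, the gene carried by the construct, checks the order of the gates. Its level, in counts per 1000000 reads after scaling by the trimmed mean of M values (CPM), was 85.6 in the parental library, 106 for YFP-negative, 163 for YFP-low, 362 for YFP-medium and 998 for YFP-high. The libraries followed the order of the gates, and the counting interval of each neighbouring ratio excluded 1. E2F1 was 1.53-fold higher in YFP-low than in YFP-negative (95% counting interval 1.49 to 1.58). The next step, from YFP-low to YFP-medium, was 2.22-fold (2.17 to 2.27), and the last, to YFP-high, 2.76-fold (2.72 to 2.80), so the ratio was larger at each step. Counts per gene name merge the construct with the cell's own E2F1, and in bulk samples more cells with a transcript and more transcript per cell cannot be told apart.

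E2F2 was the only other activator that followed YFP through all fractions. It had 44.3 CPM in the parental library, 36.8 for YFP-negative, 61.6 for YFP-low, 118 for YFP-medium and 196 for YFP-high. Its lowest library was YFP-negative, 1.20-fold below parental (1.15 to 1.26), whereas the lowest library of E2F1 was parental. From YFP-negative to YFP-low E2F2 was 1.68-fold higher (1.6 to 1.75), a larger ratio than that of E2F1, construct and own gene merged. At the later steps its ratios of 1.91 (1.84 to 1.98) and 1.67 (1.62 to 1.71) were smaller than those of E2F1. Over the full range E2F2 was 5.33-fold higher (5.12 to 5.54), and 4.43-fold higher than in parental cells (4.26 to 4.60).

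E2F3 was lower in the YFP-positive fractions, by little. Its level was 38.2 CPM in the parental library, 39.3 for YFP-negative, 36.1 for YFP-low, 29.1 for YFP-medium and 31.9 for YFP-high. Parental and YFP-negative differed by less than counting error (ratio 1.03, 0.979 to 1.08), and YFP-medium was the lowest library. Against YFP-negative the E2F3 level was 1.35-fold lower in YFP-medium (1.28 to 1.43) and 1.23-fold lower in YFP-high (1.17 to 1.30), short of the 2-fold size used to call a gene. One of the promoter windows of E2F3, shown above, holds a match to the E2F site, as those of E2F1 and E2F2 do.

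**Figure D1:**
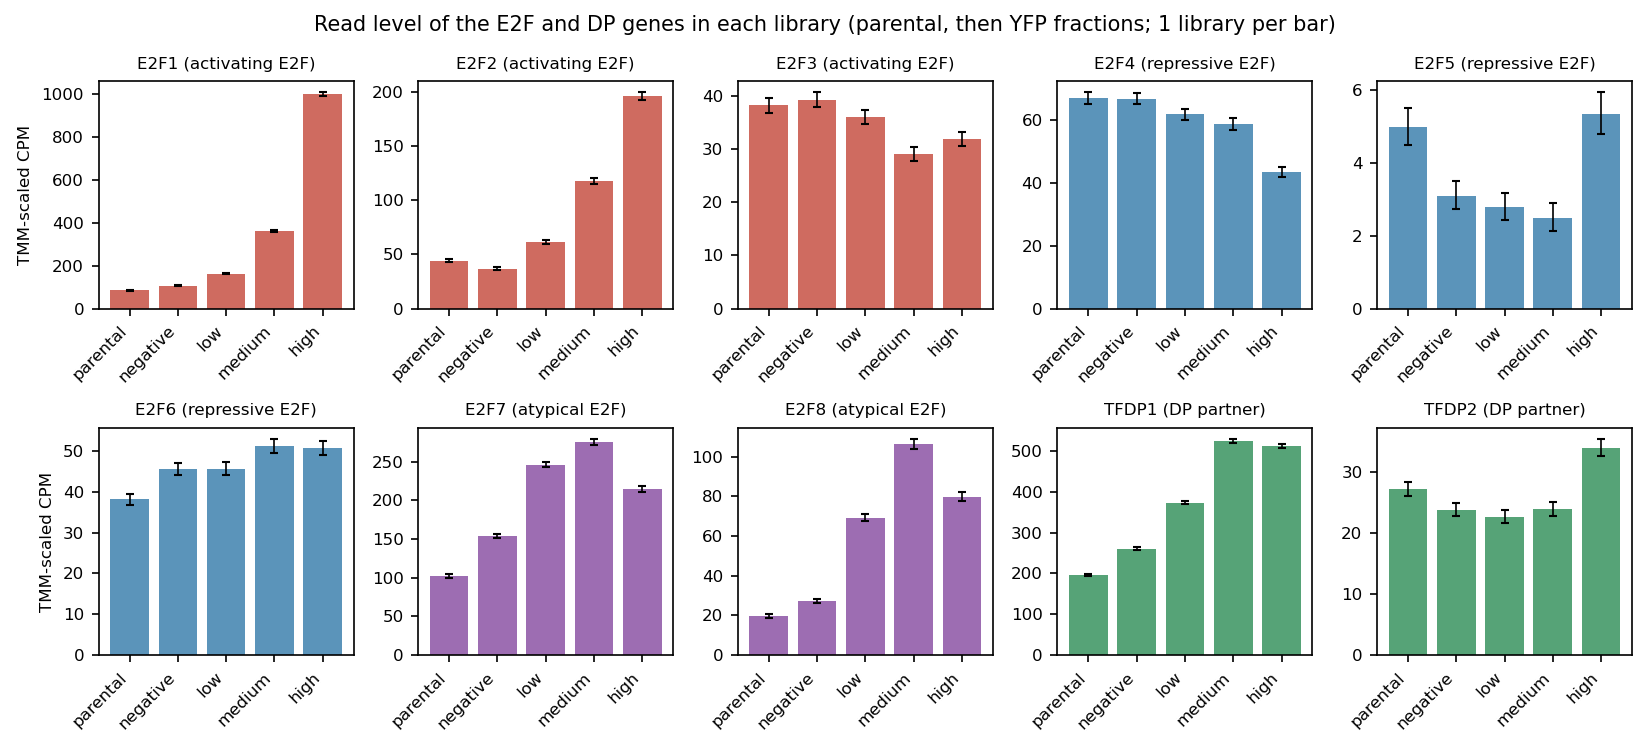
TMM-scaled CPM of the 10 members on linear axes that differ between panels; each bar is 1 library and error bars are exact 95% Poisson counting intervals. E2F1 and E2F2 are highest in YFP-high (998 and 196 CPM), E2F7, E2F8 and TFDP1 in YFP-medium, and E2F4 is lowest in YFP-high at 43.3 CPM.

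Among the repressive members E2F4, the E2F most tied to the pocket proteins of resting cells, was lower in each successive YFP fraction. It had 66.9 CPM in the parental library, 66.7 for YFP-negative, 61.8 for YFP-low, 58.7 for YFP-medium and 43.3 for YFP-high. Parental and YFP-negative could not be told apart by counting error, and YFP-high stood below all the others. In YFP-high E2F4 was 1.54-fold lower than in YFP-negative (1.47 to 1.61), a comparison in which 47.8% of all genes changed less. Most of the E2F4 difference lay in the last step, with 1.36-fold lower than in YFP-medium (1.29 to 1.42).

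E2F5, the other pocket protein partner, had the fewest reads of the family, with 395 in the parental library, 258 for YFP-negative, 216 for YFP-low, 169 for YFP-medium and 340 for YFP-high. These equal 4.98, 3.10, 2.79, 2.5 and 5.34 CPM. Parental and YFP-high were the high libraries and did not differ beyond counting error (1.07, 0.924 to 1.24), and neither did YFP-negative from YFP-low, or YFP-low from YFP-medium. From YFP-medium to YFP-high E2F5 was 2.14-fold higher (1.77 to 2.58), with a log2 ratio of 0.96 after the pseudocount, just under the call size; with DESeq2 size factors it was 1.01.

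E2F6, the Polycomb-linked repressor, differed by at most 1.34-fold between libraries. Its level was 38.2 CPM in the parental library, 45.6 for YFP-negative, 45.7 for YFP-low, 51.3 for YFP-medium and 50.8 for YFP-high. YFP-negative and YFP-low did not differ beyond counting error, nor did YFP-medium and YFP-high. The 1.11-fold higher level in YFP-high than in YFP-negative (1.06 to 1.17) had a log2 ratio of 0.16, which turned to -0.11 with total-count scaling.

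The atypical members were highest below the highest YFP level. E2F7 had 102 CPM in the parental library, 154 for YFP-negative, 246 for YFP-low, 275 for YFP-medium and 215 for YFP-high. Every neighbour in its order, from YFP-medium through YFP-low, YFP-high and YFP-negative to parental, differed beyond counting error. E2F7 was 1.59-fold higher in YFP-low than in YFP-negative (1.56 to 1.63) and 1.28-fold lower in YFP-high than in YFP-medium (1.25 to 1.31).

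E2F8 had 19.5 CPM in the parental library, 27.2 for YFP-negative, 69.3 for YFP-low, 107 for YFP-medium and 79.9 for YFP-high. The 3 YFP-positive libraries lay above both others, with YFP-medium on top. E2F8 was 2.55-fold higher in YFP-low than in YFP-negative (2.43 to 2.68), while E2F1, construct and own gene merged, was 1.53-fold higher there. Against the same baseline its YFP-medium level was 3.92-fold higher (3.74 to 4.11) and its YFP-high level 2.94-fold (2.80 to 3.09). Between YFP-medium and YFP-high the level was 1.33-fold lower (1.29 to 1.38), with a log2 ratio of -0.41, beside a median of -0.07 over all genes in that step. Under the 4 alternatives of scaling, pseudocount or unit the log2 ratio of this step lay between -0.36 and -0.47 for E2F8 and between -0.31 and -0.41 for E2F7.

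TFDP1, which encodes the main DP partner, had 196 CPM in the parental library, 260 for YFP-negative, 373 for YFP-low, 524 for YFP-medium and 512 for YFP-high. It was higher up to YFP-medium and differed by only 1.02-fold between YFP-medium and YFP-high (1.01 to 1.04), a difference whose direction turned with DESeq2 size factors (log2 ratio of -0.03 against 0.02). Against YFP-negative TFDP1 was 2.01-fold higher for YFP-medium (1.98 to 2.05) and 1.97-fold for YFP-high (1.93 to 2.00), on either side of the 2-fold size. It fell short of that size in YFP-medium too with total counts (log2 ratio of 0.79) and with the deposited TPM (0.90), and passed it in YFP-high with DESeq2 size factors (1.03).

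TFDP2, the second DP gene, had 27.2 CPM in the parental library, 23.8 for YFP-negative, 22.6 for YFP-low, 23.9 for YFP-medium and 34.0 for YFP-high. YFP-medium, YFP-negative and YFP-low followed each other without a difference beyond counting error, and YFP-high was the highest. The ratio of YFP-high to YFP-negative was 1.43 (1.34 to 1.52). The log2 ratio of YFP-medium to YFP-negative, 0.00, was -0.21 with total counts. TFDP2 and E2F5 were each other's nearest relative by profile, with parental and YFP-high as the 2 high libraries in both.

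**Figure D2:**
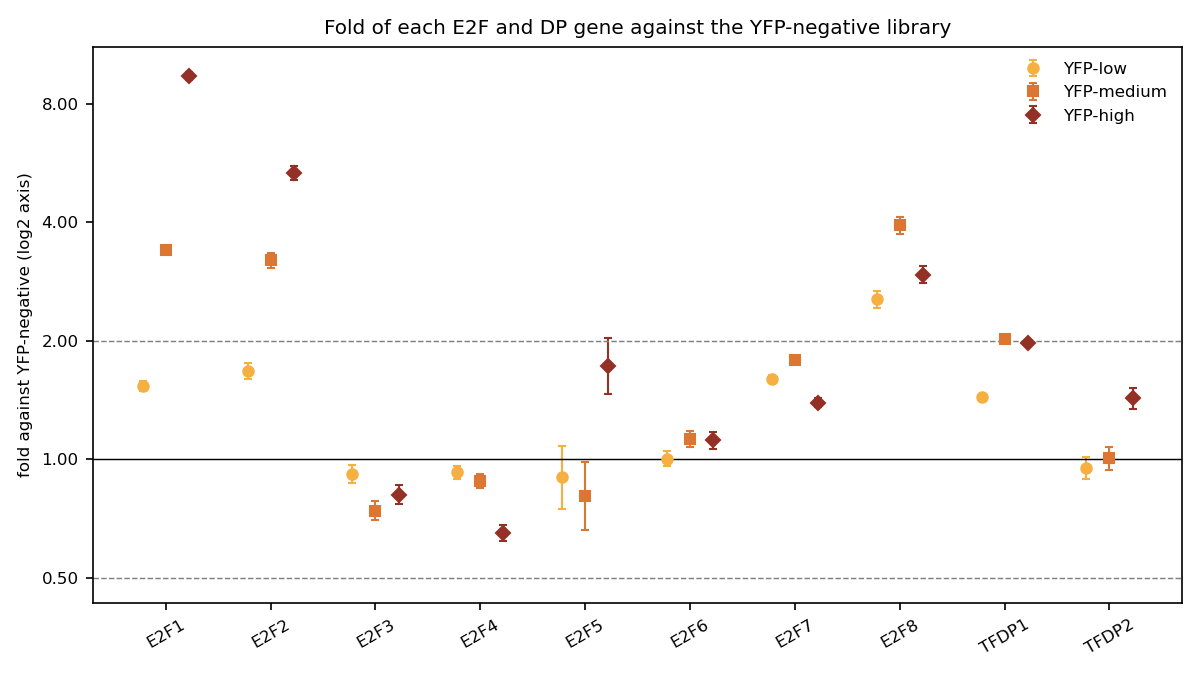
Fold of each member in each YFP-positive fraction against YFP-negative on a log2 axis; error bars are exact 95% counting intervals and dashed lines mark 2-fold. In YFP-high 3 members lie above 2-fold, E2F1, E2F2 and E2F8, and E2F4 is lowest at 0.649.

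Counted over the family, a gene was called when its log2 ratio with a pseudocount of 0.5 CPM passed 2-fold and its counting interval excluded 1. In YFP-low against YFP-negative 1 of 10 members was called higher, E2F8, where 2.07% of all analysed genes were, and 0 lower (0.0596% of all genes; 2.13% in either direction). With a size of 1.5-fold, 4 members were higher, E2F1, E2F2, E2F7 and E2F8. In YFP-medium 4 of 10 were higher, E2F1, E2F2, E2F8 and TFDP1, against 9.75% of all genes, and 0 lower (2.25%; 12% in either direction). In YFP-high 3 of 10 were higher, E2F1, E2F2 and E2F8, against 20.3% of all genes, and 0 lower (11.3%; 31.6% in either direction), so that this count lay nearer to the background than that of YFP-medium. These 3 comparisons share the YFP-negative library. The gates were set by YFP fused to E2F1, so a higher E2F1 level is built into the sorting, here and below. Apart from E2F1, the members called higher were E2F2, E2F8 and TFDP1 in YFP-medium, and E2F2 and E2F8 in YFP-high.

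Over the 10 members the median log2 ratio was 0.26 (YFP-low), 0.50 (YFP-medium) and 0.60 (YFP-high), beside medians over all analysed genes of -0.01, -0.02 and -0.05. By single steps, 1 of 10 members was called higher from YFP-low to YFP-medium (2.74% of all genes) and 1 of 10 from YFP-medium to YFP-high (9.17%). In both steps this was E2F1, the gene of the construct that set the gates, and no other member was called. Lower calls were 0 in both steps (0.185% and 1.31% of all genes, with 2.92% and 10.5% in either direction). Scaling by total counts shifted the all-gene median by -0.26 (log2) in YFP-high and by -0.20 in YFP-medium, both against YFP-negative.

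Between the YFP-negative and parental libraries 0 of 10 members passed the call size in either direction (2.21% of all genes were higher, 2.85% lower and 5.05% either). E2F7 was 1.51-fold higher in YFP-negative than in parental (1.47 to 1.56), E2F8 1.39-fold (1.31 to 1.49), TFDP1 1.33-fold (1.30 to 1.36) and E2F1 1.24-fold (1.20 to 1.28). E2F5 was 1.61-fold lower (1.37 to 1.89). These intervals cover counting error between single libraries. Of all genes, 62.1% changed less than E2F1, 72.6% less than TFDP1, 77.7% less than E2F8, 84.8% less than E2F7 and 85.3% less than E2F5. With parental as baseline, 5 of 10 members were called higher in YFP-high, E2F1, E2F2, E2F7, E2F8 and TFDP1, against 21.3% of all genes, and 0 lower (14.6%; 35.9% in either direction). The same 5 members were called in YFP-medium against parental (12.5% of all genes higher, 8.17% lower, 20.7% either), and 2, E2F7 and E2F8, in YFP-low (5.96% higher, 4.4% lower, 10.4% either). E2F7, at 2.10-fold (2.05 to 2.16), and TFDP1, at 2.61-fold (2.56 to 2.66), were added by this baseline. The E2F7 call was lost with total counts (log2 ratio of 0.82) and with the deposited TPM (0.94). The parental and YFP-negative libraries differ in the construct and in sorting by YFP, which cannot be told apart here.

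Levels were compared between genes with the deposited TPM, transcripts per 1000000 corrected for length. In parental cells the 2 leading E2F genes were E2F4 at 93.4 TPM and E2F1 at 88.9 TPM, followed by E2F7 at 46.2, E2F6 at 30.1, E2F2 at 22.3, E2F3 at 19.9, E2F8 at 13.3 and E2F5 at 8.07 TPM. In YFP-high E2F1 stood at 950 TPM, E2F2 at 90.4, E2F7 at 89.0, E2F4 at 55.4, E2F8 at 49.8, E2F6 at 36.7, E2F3 at 15.2 and E2F5 at 7.93 TPM. E2F4 thus went from the first to the fourth place and E2F2 from the fifth to the second, just above E2F7. In YFP-negative E2F1, at 111 TPM, already stood above E2F4, at 93.3 TPM. The sources used here do not state which length the TPM of E2F1 rests on, and the fusion transcript differs in length from that of the gene.

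E2F1 held 27.6% of the summed TPM of the 8 E2F genes in the parental library, 29.7% for YFP-negative, 33.6% for YFP-low, 48.5% for YFP-medium and 73.4% for YFP-high. The sum of the activators E2F1 to E2F3 over that of the repressors E2F4 to E2F6 was 0.996 in the parental library, 1.11 for YFP-negative, 1.73 for YFP-low, 3.56 for YFP-medium and 10.6 for YFP-high. Without E2F1, the sum of E2F2 and E2F3 over that of the same repressors was 0.321, 0.290, 0.393, 0.589 and 1.06 in this order. This ratio was also higher in YFP-high than in YFP-negative. Among its members E2F2, E2F5 and E2F6 were higher in TPM in YFP-high than in YFP-negative, and E2F3 and E2F4 were lower.

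TFDP1 and TFDP2 together had 155 TPM in the parental library, 203 for YFP-negative, 283 for YFP-low, 373 for YFP-medium and 363 for YFP-high, and TFDP1 made up 95.6% to 98.5% of it. The sum of the 6 E2F genes that pair with DP was 263, 284, 339, 534 and 1156 TPM. The ratio of DP to these E2F transcripts was 0.591 in the parental library, 0.716 for YFP-negative, 0.835 for YFP-low, 0.699 for YFP-medium and 0.314 for YFP-high, with YFP-low as the highest and YFP-high as the lowest library. This order rests on E2F1, whose reads include the construct: over E2F2 to E2F6 alone the ratio was 0.894, 1.17, 1.63, 2.01 and 1.77 in the same order of libraries, with YFP-medium as the highest and parental as the lowest. E2F7 and E2F8 together over the 3 activators had a ratio of 0.453 in the parental library, 0.591 for YFP-negative, 0.724 for YFP-low, 0.439 for YFP-medium and 0.132 for YFP-high. Both ratios that include E2F1 were highest in YFP-low. These are ratios of transcripts, and protein was not measured here.

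**Figure D3:**
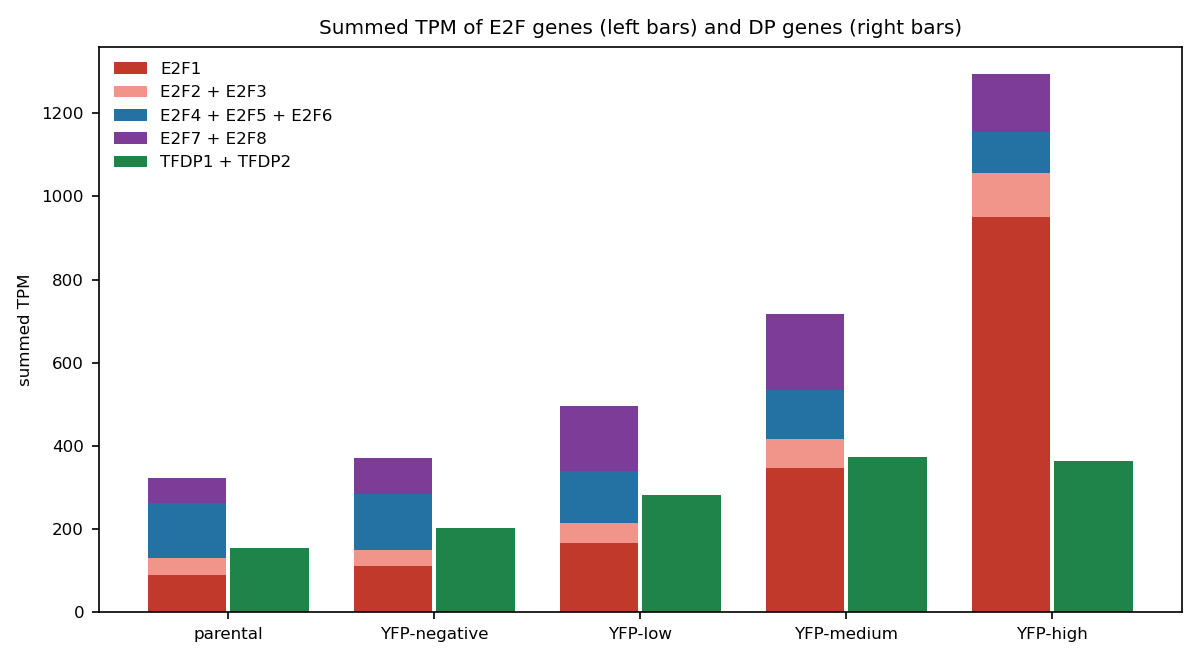
Summed deposited TPM in each library, with E2F genes stacked in the left bars and TFDP1 plus TFDP2 in the right bars. In YFP-high E2F1 makes up 73.4% of the E2F sum, while the DP sum stays at 363 TPM, close to the 373 TPM of YFP-medium.

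The genes around the family were taken from 6 lists, and calls in YFP-high read against the same 20.3% higher and 11.3% lower of all genes, whose median log2 ratio was -0.05. Of 10 pocket proteins, subunits of MuvB (a complex that represses with pocket proteins and activates with MYBL2) and the linked factors MYBL2 and FOXM1, 1 was called higher and 1 lower in YFP-high against YFP-negative (median log2 ratio 0.67). LIN54, the DNA-binding subunit of MuvB, was 4.49-fold higher (4.36 to 4.62) and LIN52, which links MuvB to pocket proteins, 2.27-fold lower. RB1 was called higher in YFP-medium, with a log2 ratio of 1.22, and had 0.91 in YFP-high, where RBBP4 had 0.89. The pocket proteins that partner E2F4 and E2F5 did not follow RB1: RBL1 had 37.4 CPM in YFP-negative and 31.9 in YFP-high, and RBL2 had 56.9 and 33.4 CPM. RBL1 and RBL2 were named after their values were seen.

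Of 9 cyclins and kinases upstream of RB1, 3 were higher and 2 lower in YFP-high (median 0.19). The higher genes were CCNE1 (4.59-fold), CCNE2 (5.68-fold) and CCND3 (4.67-fold), all called from YFP-low on. CCND3, a D-type cyclin, had 56.9 CPM in the parental library, 179 for YFP-negative, 485 for YFP-low, 817 for YFP-medium and 838 for YFP-high. The lower genes were CCND2, at 3.58-fold, and its kinase partner CDK6, at 3.48-fold, the latter named after its values were seen. The 3 higher genes were also called higher in YFP-negative against parental.

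Of 10 subunits listed for the E2F6 complex 9 were analysed, and in YFP-high 3 were higher and 0 lower (median 0.47). The subunit left out was RING1, with 0 to 4 reads in a library. YAF2 and RYBP, a pair of related proteins, were 3.60-fold (3.40 to 3.81) and 3.19-fold higher (3.10 to 3.27), and PCGF6, which defines the complex, 2.03-fold (1.92 to 2.14). PCGF6 only just passed the call size, with a log2 ratio of 1.01, and other scaling was not tried for the lists. RNF2, the ubiquitin ligase of the complex, had a log2 ratio of 0.75. In YFP-low and YFP-medium against YFP-negative 0 of the 9 were called, beside 2.13% and 12% of all genes in either direction. E2F6 itself, as given above, was close to level over these libraries.

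Of 12 coactivators and corepressors of E2F proteins, 1 was higher and 1 lower in YFP-high (median -0.03). The acetyltransferase KAT2B was 3.69-fold higher (3.51 to 3.87), while its paralogue KAT2A had 67.9 CPM in YFP-negative and 33.8 in YFP-high, just short of a call. The corepressor SIN3B was 2.25-fold lower, and its paralogue SIN3A had a log2 ratio of 0.91. Of 7 genes of E2F turnover 2 were higher and 0 lower (median 0.11): SKP2, the F-box protein that binds E2F1 for degradation, at 3.06-fold (3.00 to 3.12), and CCNF, the cyclin F gene, at 2.01-fold (1.97 to 2.06). The CCNF ratio only just passed the call size. CDC20 and UCHL5 had log2 ratios of -0.66 and -0.60.

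Of 30 classical E2F targets of the G1/S transition 3 were called higher at YFP-low, 5 at YFP-medium and 4 at YFP-high, and 2 were lower in YFP-high, ORC1 and MCM5, both named after their values were seen. Over all analysed genes 2.07%, 9.75% and 20.3% were called higher in these comparisons, so that the 4 of 30 at YFP-high are a smaller share than that of all genes. The median log2 ratio of the list was 0.23, 0.52 and 0.50 in the 3 fractions. In YFP-negative against parental it was -0.27. CCNE1, CCNE2 and CCNA2 stand in this list and in that of the cyclins, and RBL1 and MYBL2 also stand in that of the pocket proteins. RRM2, a subunit of ribonucleotide reductase, was 3.91-fold higher in YFP-high (3.88 to 3.95), and CDC25A had 71.5 CPM for YFP-negative, 98 for YFP-low, 181 for YFP-medium and 381 for YFP-high. RRM2 came close to its YFP-high level in YFP-medium, with log2 ratios of 1.98 and 1.97, as TFDP1 did, while CDC25A was higher at each step, as E2F1 and E2F2 were.

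**Figure D4:**
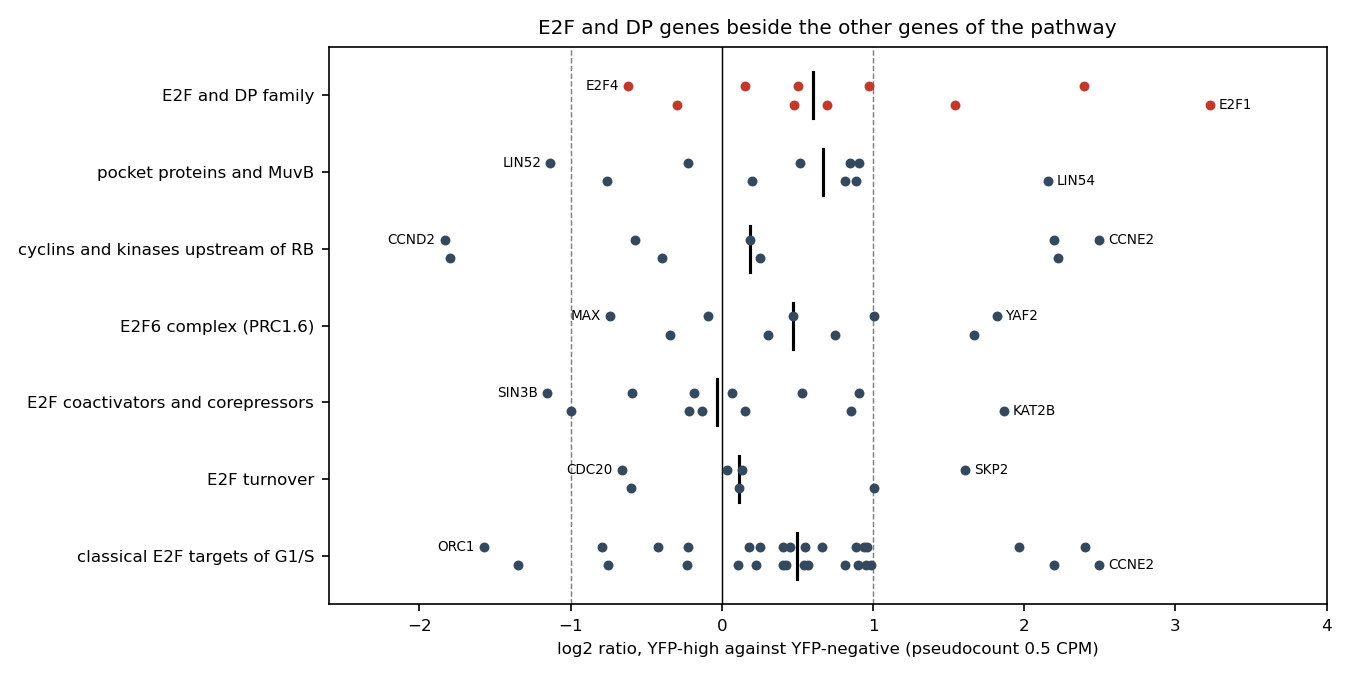
Log2 ratio of YFP-high against YFP-negative (pseudocount 0.5 CPM) for each analysed gene of the family and of 6 pathway lists; each point is a gene, black bars are list medians, dashed lines mark 2-fold and the genes at both ends are named. The family runs from E2F4 at -0.62 to E2F1 at 3.23, with a median of 0.60.

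The genes most like a member were found by the root mean square difference of log2(CPM + 0.5) over the 5 libraries, each profile centred on its mean, among 12237 genes with at least 5 CPM in a library. With 5 points, many genes lie close by, and the distance is a description. Nearest to E2F1 were CEP19 at 0.03, SLC30A3 at 0.06, CCDC74B at 0.07, LEF1 at 0.07 and LOC646762 at 0.08. CEP19, a centrosomal protein gene, had 1.87 CPM in the parental library, 2.30 for YFP-negative, 3.97 for YFP-low, 9.22 for YFP-medium and 25.6 for YFP-high. LEF1, a transcription factor of the WNT pathway, had 16.1, 21.0, 33.2, 64.4 and 187 CPM.

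Nearest to E2F2 were EPHB6 at 0.05, AK096279 at 0.06, PATZ1 at 0.07, AK092098 at 0.09 and LRP3 at 0.10. PATZ1, a zinc finger factor, had its lowest level in YFP-negative, at 59.2 CPM against 80.1 in parental, as E2F2 had. Nearest to E2F7 were SCML2, TBC1D15, C4orf19, SPC25 and LMO7, at 0.07 to 0.10. SPC25, a kinetochore gene, had 53.2 CPM in the parental library, 67.7 for YFP-negative, 121 for YFP-low, 146 for YFP-medium and 113 for YFP-high. Nearest to E2F8 were ARRB2, PKN3, RAPGEF5, SPIN4 and PDLIM3, at 0.08 to 0.13. Within the family E2F1 and E2F2 were each other's nearest member at 0.45, E2F7 and TFDP1 at 0.22, and E2F3 and E2F4 at 0.18. Nearest genes were picked from a far larger pool than nearest members. The sizes of their distances therefore cannot be compared.

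**Figure D5:**
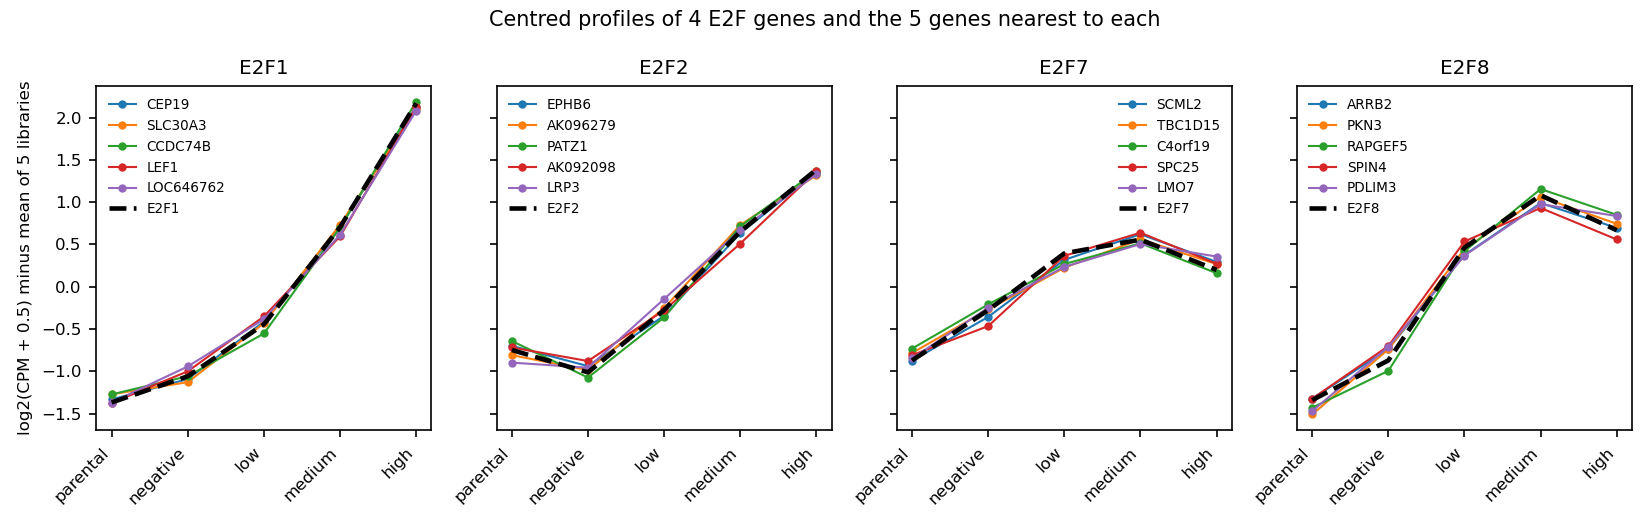
Centred log2(CPM + 0.5) profiles of E2F1, E2F2, E2F7 and E2F8 (dashed black) and of the 5 genes nearest to each over the 5 libraries. The E2F1 and E2F2 groups are highest in YFP-high, and the E2F7 and E2F8 groups in YFP-medium.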

How the data were processed

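RNA was sequenced in 5 libraries, 1 per group. The authors deposited raw read counts per gene name and a second table of TPM that sum to 1000000 per library. Reads were handled, per the submitters' processing notes, with Trimmomatic 0.36, HISAT2 2.0.3 and HTSeq 0.6.0 on hg19, after CASAVA 1.8.2 and bcl2fastq. Annotation, strand setting and TPM tool: not given in the sources used here. How reads of overlapping genes were assigned is therefore not known here. Rows without a gene, 22.3% to 24.3% of counted reads, were dropped.

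Genes reaching 1 CPM of gene reads in at least 1 library were scaled by TMM (edgeR 4.0.16 in R 4.3.3, reference YFP-negative). Log2 ratios carry a pseudocount of 0.5 CPM, and folds do not. Intervals are exact 95% Clopper-Pearson; PCR copies may make them too narrow. With 1 library per group there is no test and no p-value. The call rule was tested on simulated counts with Poisson error alone, so that test does not cover the scaling or differences between replicate libraries. Other software was pandas 2.3.3, scipy 1.17.1, numpy 2.4.6, matplotlib 3.10.9 and Python 3.11.15.

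The members and lists were chosen with earlier results of these data known. Named genes are the 10 members, at most 4 genes a list (by size of change in YFP-high, from 5 CPM) and the 5 genes nearest to E2F1, E2F2, E2F7 and E2F8; exceptions are marked. Promoters are from RefSeq on GRCh38.p14. The alternatives tried were total counts, DESeq2 1.42.0 size factors, the deposited TPM, a pseudocount of 2 CPM, other filters (none, or 5 CPM), a 1.5-fold rule and the parental baseline.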

Additional observations from a re-analysis of the deposited data

How the results depend on the processing

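No paired analysis was possible because each group holds 1 library. In YFP-low against YFP-negative the count of members called higher was 1, and 4 with the 1.5-fold rule and 2 with parental as baseline. In YFP-high it was 3, and 5 with the 1.5-fold rule and 5 with parental as baseline; with the 1.5-fold rule 1 member, E2F4, was lower, as it was against parental (1 member). From YFP-low to YFP-medium the 1.5-fold rule gave 3 higher, and from YFP-medium to YFP-high 3, where DESeq2 size factors gave 2. Between YFP-negative and parental the 1.5-fold rule gave 1 higher, E2F7, and 1 lower, E2F5. The share of E2F1 among E2F genes, taken from CPM, which is not corrected for length, was 21.4% in the parental library, 22.2% for YFP-negative, 23.7% for YFP-low, 36.1% for YFP-medium and 61.6% for YFP-high. Of 70 log2 ratios of single members the sign changed in 3 with DESeq2 size factors, 7 with total counts, 4 with the deposited TPM and 0 with a pseudocount of 2 CPM, in no case for a called member. Of the 5 genes nearest to a member, total counts kept all 5 for E2F1, E2F7 and E2F8, and 4 for E2F2. Depth limits E2F5, with 169 to 395 reads, more than the other members.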

Other observations

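TFDP3, a further DP gene that was not among the members, had 2 reads in the parental library, 1 for YFP-negative, 0 for YFP-low, 2 for YFP-medium and 0 for YFP-high, all under the floor of 3 reads, so no level or fold is given.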
